A study of Homo sapiens with 9 samples.

Results

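The developmental transcription factors examined here were the genes of the SOX, PAX, GATA, LHX, TBX, DLX and IRX families, the sine oculis homeobox genes such as SIX2 and SIX4, and the POU3F and POU4F classes, taken by their symbols from the deposited table. PAX5 was left out by the rule. The symbols matched 80 of the 58387 rows of the table, spread over 10 families or classes, and 1 of the 80 rows, SOX5P, is a pseudogene. The rule used names only and no measured value.

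The libraries came from MM1S, an established human multiple myeloma cell line, grown in RPMI1640 with 10% FBS and profiled by RNA-seq. In KD_Rescued, with 2 libraries, cells carried an shRNA against PHF19 together with shRNA-resistant PHF19. In PHF19_KD, with 3 libraries, cells carried the shRNA alone. In shEV, with 3 libraries, cells carried the empty vector. Every group had been infected with lentivirus and expressed its construct stably. A further library had labels that disagree, a knockdown by its title and a rescue by its shRNA label, and it entered no test. The labels do not state whether the libraries of a group came from separate cultures, so p-values rest on differences between libraries that may only be technical. A single cell line was used throughout.

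PHF19 associates with PRC2, the Polycomb enzyme complex that places the repressive methyl mark H3K27me3 on histone tails, and helps to recruit it to chromatin. Polycomb complexes keep many lineage-determining genes off outside the tissue that uses them, and families such as SOX, PAX, GATA, TBX and LHX are textbook examples of genes covered by this mark in cells where they are silent. Plasma cells, from which myeloma arises, take their identity from other factors, such as IRF4, PRDM1 and XBP1.

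Libraries held 23644123 and 23751353 estimated counts in KD_Rescued, 10609798 to 12024913 in PHF19_KD, 16974728 to 22739741 in shEV and 10164112 in the library with disagreeing labels. PHF19 itself stood at 220 and 217 normalised CPM (counts scaled by library total and TMM factor) in KD_Rescued, at 25.9, 27.5 and 27.3 in PHF19_KD and at 123, 123 and 103 in shEV. It fell by 2.11 ± 0.08 on the log2 scale (SE) in PHF19_KD against shEV (adjusted p = 2.47e-10), and it rose in KD_Rescued against PHF19_KD by 3.02 ± 0.08 (adjusted p = 2.49e-11). It was also higher in KD_Rescued than in shEV, by 0.91 ± 0.07 (adjusted p = 2.45e-06). The library with disagreeing labels held 63.3 normalised CPM of PHF19, between PHF19_KD and shEV. The share of counts from mitochondrially encoded genes was 4.99 to 5.18% in KD_Rescued, 9.02 to 10.0% in PHF19_KD, and 2.84 to 3.32% in shEV. By their names, the KD_Rescued libraries were run in another lane than all others, and effects of the lane cannot be told apart from those of the rescue. The 8 plasma cell markers, among them SDC1, CD38, XBP1 and IRF4, were all measured, with summed levels of 4097 to 4188 normalised CPM in KD_Rescued, 4272 to 4333 in PHF19_KD and 4383 to 4452 in shEV. The sums cover opposite moves. In PHF19_KD against shEV, 3 of the 8 were higher and 3 lower, against 34.9% and 34.2% of all tested genes. CD38 rose by 1.16 ± 0.04 (adjusted p = 1.68e-10) and SDC1 by 0.60 ± 0.06 (adjusted p = 2.28e-06). TNFRSF17 fell by 1.07 ± 0.05 (adjusted p = 2.89e-09) and IRF4 by 0.78 ± 0.04 (adjusted p = 3.02e-09).

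Most of the developmental factors were silent in MM1S cells. Of the 80 genes, 53 stayed below 0.5 CPM of the library total in all 9 libraries, and 25 of these 53 had 0 counts in every library. A count of 0 allows up to 3 counts, which is 0.126 to 0.295 CPM depending on the depth of the library and covers counting error only. The other 28 silent genes had at least 1 count somewhere and reached at most 0.423 CPM. The silent share was 66.2% of the 80 genes, against 32.5% of 17848 rows whose symbol RefSeq lists as protein-coding and 69.1% of all rows of the table, where noncoding rows are included. The threshold is per library and not per transcript length, so a long gene crosses it at a lower number of transcripts than a short gene.

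All 10 families had at least 1 gene that reached 0.5 CPM. The sine oculis homeobox genes, factors of eye and muscle, formed the only family with fewer silent than expressed genes, at 2 of 6 silent. POU3F, the class of OCT6 and BRN2, had equal numbers, with POU3F3 and POU3F4 silent and POU3F1 and POU3F2 expressed. Of 20 SOX rows, HMG-box factors, 12 were silent, namely SOX1, SOX3, SOX6, SOX8, SOX9, SOX10, SOX14, SOX17, SOX18, SOX21, SOX30 and SOX5P. Of 13 TBX genes, the T-box factors of mesoderm, heart and limb, 9 were silent: TBX1, TBX3, TBX4, TBX5, TBX10, TBX15, TBX20, TBX21 and TBX22. In each of the DLX, GATA and IRX families 5 of 6 genes were silent, and DLX6, GATA4 and IRX5 were the single expressed genes. In the LHX family 5 of 8 were silent, and LHX2, LHX4 and LHX8 were expressed. PAX1, PAX2, PAX3, PAX4, PAX7 and PAX9 were silent, leaving PAX6 and PAX8, and of POU4F only POU4F1 was expressed.

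**Figure D1:**
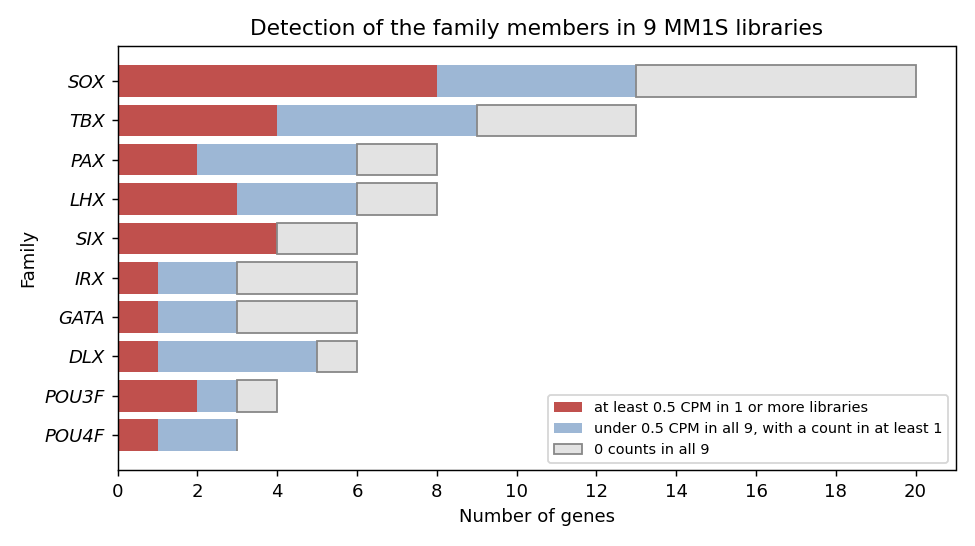
Number of genes (x axis) in each family (y axis), divided into those at 0.5 CPM or more in at least 1 of 9 libraries, those below 0.5 CPM in all 9 with a count in at least 1, and those with 0 counts in all 9. In the SOX bar 8 of 20 genes were expressed, and only in the bar of the sine oculis homeobox genes does the expressed segment, 4 of 6, exceed the silent ones.

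The plot of genes by family shows these counts, and the genes nearest to the threshold lay close to it on both sides. Just inside were GATA3 at a maximum of 0.423 CPM, SOX9 at 0.416 and TBX3 at 0.349, and just outside were SOX15 at 0.528, DLX6 at 0.595 and SIX2 at 0.616. GATA3, the T helper and luminal breast factor, had 10 and 5 counts in KD_Rescued, 0 in all 3 PHF19_KD libraries, and 4, 6 and 7 in shEV. DLX1, a forebrain interneuron factor, had 8 and 7 counts in KD_Rescued, 0, 1 and 0 in PHF19_KD, and 4, 5 and 2 in shEV. SOX9, the chondrocyte and testis factor, had 0 and 1 counts in KD_Rescued, 2, 5 and 4 in PHF19_KD, and 2, 1 and 0 in shEV. PHF19_KD libraries were the shallowest of the 3 groups, and no silent gene passed the filter on low counts, so none entered the main test. In an edgeR fit with no filter, GATA3 was called lower in PHF19_KD than in shEV (adjusted p = 0.00107) and higher in KD_Rescued than in PHF19_KD (adjusted p = 0.00143). That fit also called DLX1 higher (adjusted p = 0.0219) and SOX9 and TBX1 lower (adjusted p = 0.0230 and 0.0153) in KD_Rescued against PHF19_KD, and TBX1 lower in KD_Rescued against shEV (adjusted p = 0.0335). TBX1 had 0 counts over KD_Rescued, 7 over PHF19_KD and 9 over shEV.

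Several of the expressed genes lie next to a silent relative on the chromosome, with no coding gene between them in RefSeq. IRX5 was expressed between IRX3, at a maximum of 0.0984 CPM, and IRX6, at 0 counts. TBX2 neighbours TBX4, SIX2 neighbours SIX3, and DLX6 neighbours DLX5, and in each of these pairs the second gene was silent.

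The promoters of 3 members are shown because these genes had large changes with knockdown: TBX18 and TBX6, which were higher in PHF19_KD, and SOX2, which was lower. The table of RefSeq promoters (GRCh38.p14, 250 bases before to 50 after the gene start) held 53 of the 80 members, too few for a comparison of base composition over the members, and none was made. Each sequence is read 5′ to 3′ on the strand of the gene, and capitals mark every CG dinucleotide. PRC2 is commonly found at CpG islands, which are dense in such dinucleotides, but no island was called here. TBX18 is at chr6:84764549-84764848 on the minus strand, TBX6 at chr16:30091875-30092174 on the minus strand, and SOX2 at chr3:181711675-181711974 on the plus strand.
TBX18: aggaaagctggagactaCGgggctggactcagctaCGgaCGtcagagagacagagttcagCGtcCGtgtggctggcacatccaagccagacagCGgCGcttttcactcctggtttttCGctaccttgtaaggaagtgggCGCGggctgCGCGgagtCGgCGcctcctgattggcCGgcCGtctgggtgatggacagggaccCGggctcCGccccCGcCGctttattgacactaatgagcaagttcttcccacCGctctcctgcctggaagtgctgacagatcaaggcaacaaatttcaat
TBX6: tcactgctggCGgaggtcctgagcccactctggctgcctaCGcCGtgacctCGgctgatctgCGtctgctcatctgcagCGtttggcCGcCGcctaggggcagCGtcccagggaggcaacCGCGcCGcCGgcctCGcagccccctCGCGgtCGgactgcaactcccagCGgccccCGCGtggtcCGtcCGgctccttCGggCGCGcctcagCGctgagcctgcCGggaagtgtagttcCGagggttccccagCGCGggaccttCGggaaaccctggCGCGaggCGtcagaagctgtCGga
SOX2: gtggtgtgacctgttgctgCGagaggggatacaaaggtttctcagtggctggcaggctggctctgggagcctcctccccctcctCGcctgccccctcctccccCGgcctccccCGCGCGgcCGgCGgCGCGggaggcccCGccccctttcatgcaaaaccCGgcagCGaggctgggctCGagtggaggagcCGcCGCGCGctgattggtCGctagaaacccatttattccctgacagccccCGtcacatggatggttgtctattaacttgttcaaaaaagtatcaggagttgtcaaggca
The TBX18 promoter held 21 CG dinucleotides and 59.3% G and C, the TBX6 promoter 35 and 71.3%, and the SOX2 promoter 20 and 63.3%. The median over all 27305 promoters of the table was 14 CG dinucleotides. The letters GGGCGG, searched on both strands and themselves holding a CG, occurred once in the TBX18 and SOX2 promoters and not in that of TBX6, and they were found in 44.6% of all promoters. The letters TATAAA, also searched on both strands, were in none of the 3 and in 11.95% of all promoters.

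Of the 27 expressed genes, 23 passed the filter and were tested with the edgeR quasi-likelihood method over 16600 genes with Benjamini-Hochberg adjustment. Each adjusted p given here is from that fit unless another fit or a library left out is named. POU3F1, SIX2, DLX6 and SOX15 did not pass. A gene such as TBX18 or TBX2 passed through the group in which it was high, so counts over the 23 describe them and are no sample of the 80. In GENCODE 29, exons of 11 of the 23 overlap another gene, among them LHX4 with ACBD6, PAX6 with ELP4, SIX5 with DM1-AS and SOX7 with PINX1. SOX7 and SOX11 share their strand with the overlapping gene, and in the other 9 it lies on the opposite strand. Reads of the 9 cannot be told apart without a strand setting, which is not given in the sources used here, and for SOX7 and SOX11 a strand setting would not separate them.

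In PHF19_KD against shEV, 11 of the 23 tested members rose and 5 fell, while 34.9% of all tested genes rose and 34.2% fell. The knockdown changed 69.1% of all tested genes, so a call by itself says little about a member. The median log2 fold change was 0.46 over the 23 members and 0.03 over all tested genes. At 2-fold or more, TBX18, TBX6 and SOX11 rose and TBX2, IRX5, SOX2 and POU3F2 fell, and over all tested genes 16.3% rose and 10.1% fell by that much. In KD_Rescued against PHF19_KD, 6 members rose and 7 fell, while 33.9% of all tested genes rose, 29.5% fell and 63.4% changed either way. The medians were -0.17 for the members and 0.03 for all. At 2-fold or more, IRX5, POU3F2, SOX2 and LHX2 rose and TBX18 and TBX6 fell, and over all tested genes 10.5% rose and 12.7% fell by that much. Both comparisons use the PHF19_KD libraries, so an excursion of those libraries enters both with opposite sign. The members' summed level was 132 to 138 normalised CPM in KD_Rescued, 138 to 140 in PHF19_KD and 111 to 126 in shEV, and in bulk libraries a change in the number of cells that express a gene and a change of RNA per cell cannot be told apart.

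**Figure D2:**
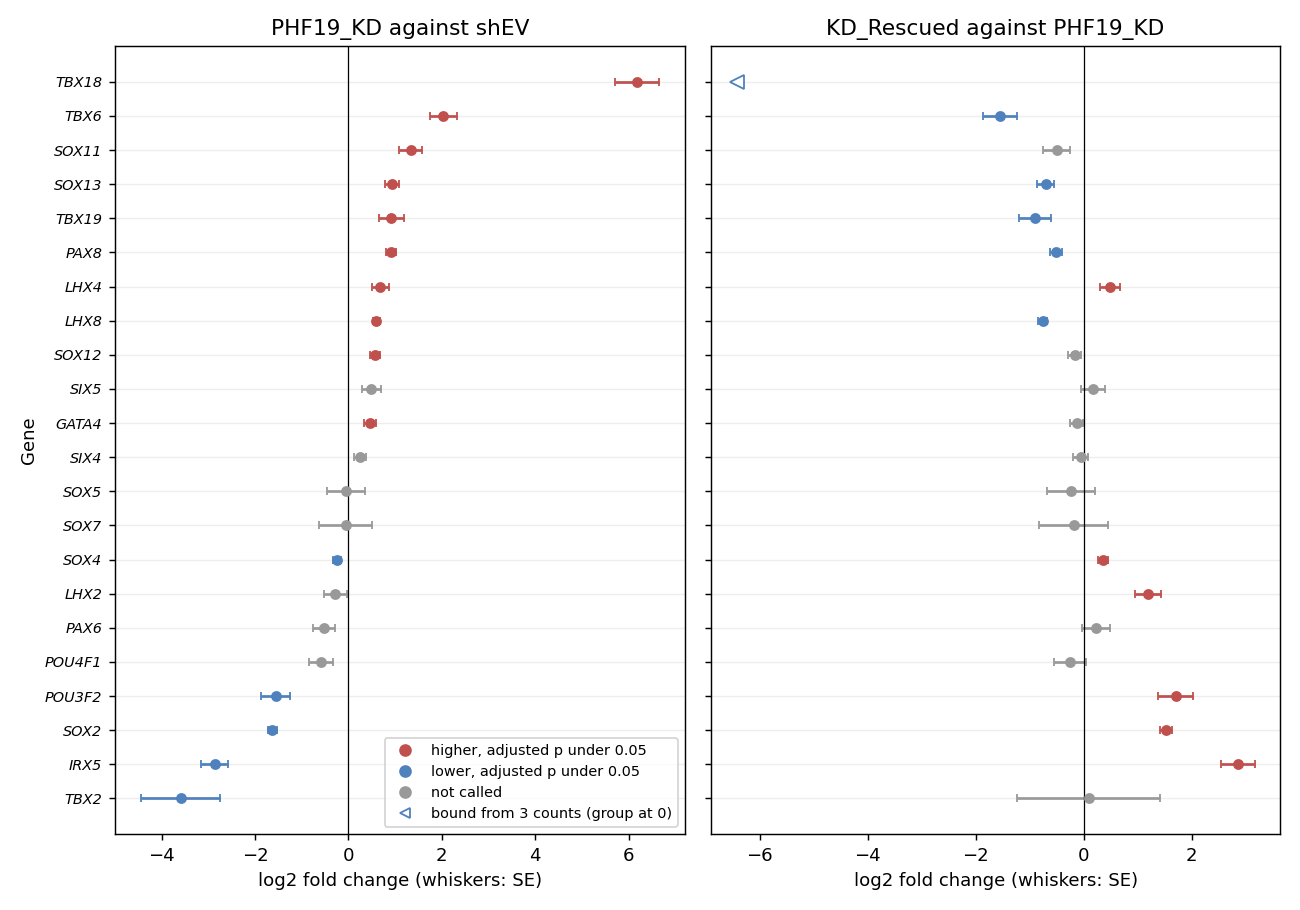
Log2 fold changes (x axis, with SE as whiskers) of 22 of the 23 tested genes (y axis) in PHF19_KD against shEV (left) and KD_Rescued against PHF19_KD (right), coloured by call. An open triangle gives a bound on the fold of TBX18, which had 0 counts in KD_Rescued, and SOX2, IRX5 and POU3F2 lie on the lower side on the left and on the higher side on the right.

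The plot of fold changes orders the members by their change with knockdown, and the T-box factors stand at both ends of it. TBX18, which in mouse embryos marks the epicardium, the sinus node and the somite boundary, stood at 0 and 0 normalised CPM in KD_Rescued, at 6.60, 4.21 and 5.46 in PHF19_KD, and at 0.135, 0 and 0.0589 in shEV. It was present at several CPM in all PHF19_KD libraries and at or near 0 in the other 2 groups. The group sums were 0 counts in KD_Rescued, 185 in PHF19_KD and 4 in shEV. The ratio of PHF19_KD to shEV was 79.2 (95% interval 30.4 to 294, counting error only), and the fitted log2 fold change was 6.18 ± 0.47 (SE; adjusted p = 4.33e-07). Against a floor of 3 counts over the KD_Rescued group, TBX18 was at least 86.1-fold lower in KD_Rescued than in PHF19_KD (adjusted p = 7.98e-07). KD_Rescued and shEV, both at or near 0, were not told apart by the test (adjusted p = 0.0975, and 0.0358 without shEV replicate 2). In the library with disagreeing labels TBX18 was 0.687, between the PHF19_KD and shEV ranges.

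TBX6, a factor of presomitic mesoderm, stood at 0.582 and 1.00 normalised CPM in KD_Rescued, at 2.14, 2.40 and 2.43 in PHF19_KD, and at 0.497, 0.657 and 0.530 in shEV. Every PHF19_KD library lay above every library of the other 2 groups. TBX6 rose in PHF19_KD against shEV by 2.04 ± 0.30 on the log2 scale (adjusted p = 5.93e-05), and it fell by 1.55 ± 0.31 in KD_Rescued against PHF19_KD (adjusted p = 0.000931). TBX19, the pituitary corticotroph factor TPIT, stood at 1.54 and 1.79 in KD_Rescued, at 2.14, 3.64 and 3.55 in PHF19_KD, and at 1.40, 2.22 and 1.30 in shEV. Its PHF19_KD and shEV ranges overlapped through 1 library of each group, and its rise with knockdown was 0.92 ± 0.27 (adjusted p = 0.00949). It fell by 0.90 ± 0.30 in KD_Rescued against PHF19_KD (adjusted p = 0.0188), a call lost without either KD_Rescued replicate (adjusted p = 0.107 and 0.0503) and without PHF19_KD replicate 2 or 3 (adjusted p = 0.0698 and 0.0613).

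TBX2, a T-box repressor of heart and limb development, was the only one of the 4 expressed T-box genes to fall with knockdown. It had 0 and 3 counts in KD_Rescued, 1, 1 and 0 in PHF19_KD, and 13, 23 and 10 in shEV. In normalised CPM these were 0 to 0.125 in KD_Rescued, 0 to 0.0929 in PHF19_KD and 0.587 to 1.16 in shEV. The counts in shEV lay above all others, and those of KD_Rescued stayed as low as those of PHF19_KD. TBX2 was 13.4-fold lower in PHF19_KD than in shEV (95% interval 3.51 to 114, adjusted p = 0.00242), and 12.5-fold lower in KD_Rescued than in shEV (95% interval 4.02 to 62.9, adjusted p = 0.0044). KD_Rescued and PHF19_KD differed by a log2 fold change of 0.09 ± 1.33 (adjusted p = 0.957), an error too wide to tell a difference at these counts. Without shEV replicate 2, which held 23 of the 46 shEV counts, TBX2 did not pass the filter and was not tested.

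**Figure D3:**
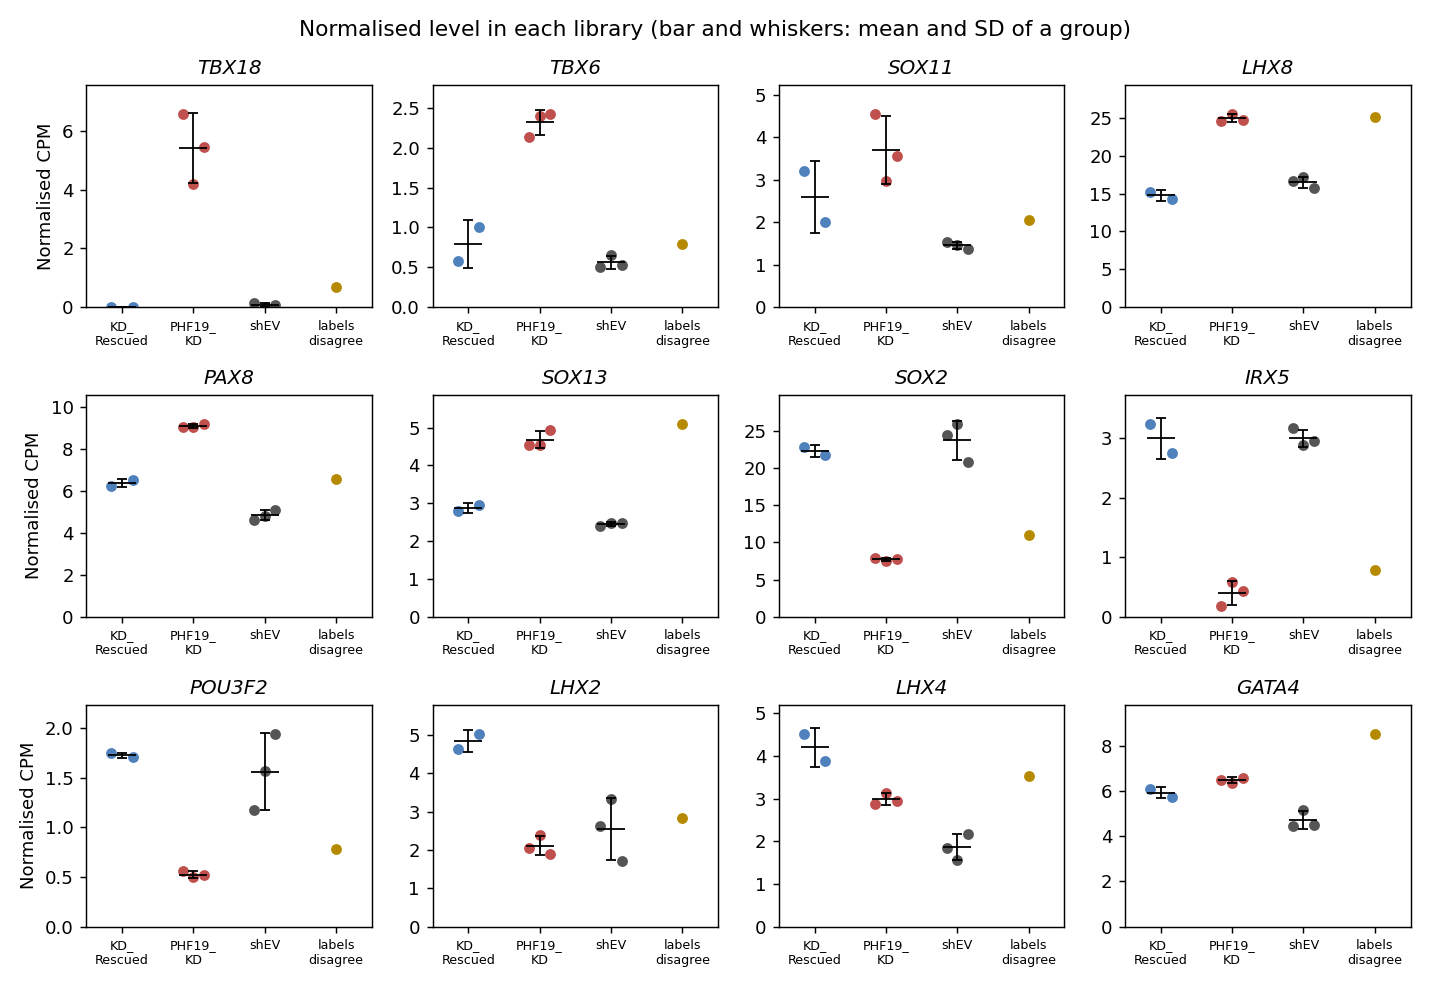
Normalised CPM (y axis, linear, each panel with its own scale from 0) of 12 members in every library of KD_Rescued, PHF19_KD and shEV and in the library whose labels disagree, with the mean and SD of each group. Among the 3 groups, TBX18, TBX6, LHX8, PAX8 and SOX13 are highest in all 3 PHF19_KD libraries, while SOX2, IRX5 and POU3F2 are lowest there.

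Among the SOX factors, the plot of values by library shows SOX2 with the clearest separation. SOX2, a factor of pluripotent and neural progenitor cells, stood at 22.8 and 21.8 normalised CPM in KD_Rescued, at 7.90, 7.52 and 7.71 in PHF19_KD, and at 24.5, 26.0 and 20.9 in shEV. All 3 PHF19_KD libraries lay far below the others, and the KD_Rescued libraries lay within the shEV range. SOX2 fell by 1.63 ± 0.10 on the log2 scale in PHF19_KD against shEV (adjusted p = 3.53e-08), and it rose in KD_Rescued against PHF19_KD by 1.53 ± 0.11 (adjusted p = 1.45e-07). KD_Rescued differed from shEV by -0.09 ± 0.09 (adjusted p = 0.442). The library with disagreeing labels, at 10.99, lay outside the range of every group.

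SOX4, SOX11 and SOX12 form the SOXC group, which acts in neural and mesenchymal progenitors, and its 3 genes did not move together. SOX11, known in haematology as a marker of mantle cell lymphoma, stood at 3.20 and 2.001 normalised CPM in KD_Rescued, at 4.55, 2.97 and 3.55 in PHF19_KD, and at 1.54, 1.46 and 1.35 in shEV. It rose with knockdown by 1.33 ± 0.24 on the log2 scale (adjusted p = 0.00036), without overlap between PHF19_KD and shEV. KD_Rescued remained higher than shEV by 0.83 ± 0.25 (adjusted p = 0.0217), a call lost without KD_Rescued replicate 1 (0.45, adjusted p = 0.3). Without that same replicate the difference between KD_Rescued and PHF19_KD passed the test at -0.87 (adjusted p = 0.0289), whereas with it the difference was -0.50 ± 0.25 (adjusted p = 0.0969). SOX12 stood at 26.0 and 26.6 in KD_Rescued, at 28.9, 29.2 and 30.6 in PHF19_KD, and at 22.2, 21.2 and 15.7 in shEV. It was highest in the PHF19_KD libraries, and its rise with knockdown was 0.57 ± 0.11 (adjusted p = 0.000635). The difference of -0.17 ± 0.12 between KD_Rescued and PHF19_KD (adjusted p = 0.234) passed the test without shEV replicate 3 (adjusted p = 0.027). SOX4, which is also needed for early B cell development in mice, stood at 18.2 and 16.2 in KD_Rescued, at 13.8, 13.2 and 13.2 in PHF19_KD, and at 16.1, 15.6 and 16.1 in shEV. It fell by 0.25 ± 0.08 with knockdown (adjusted p = 0.0185), and this call was lost without PHF19_KD replicate 2 or 3 (adjusted p = 0.057 and 0.0604). Its rise of 0.36 ± 0.09 in KD_Rescued against PHF19_KD (adjusted p = 0.0035) was lost without KD_Rescued replicate 1 (adjusted p = 0.0559). Under upper-quartile scaling, neither SOX4 difference was called (adjusted p = 0.361 and 0.0655). That scaling did call SOX11 (-0.65, adjusted p = 0.0335) and SOX12 (-0.32, adjusted p = 0.0211) lower in KD_Rescued than in PHF19_KD.

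SOX13 and SOX5 belong to the SOXD group, of which SOX13 is known for its role in gamma-delta T cells of mice. SOX13 stood at 2.78 and 2.96 normalised CPM in KD_Rescued, at 4.55, 4.54 and 4.94 in PHF19_KD, and at 2.39, 2.47 and 2.47 in shEV. Its PHF19_KD libraries lay above all libraries of the other 2 groups. SOX13 rose with knockdown by 0.93 ± 0.15 on the log2 scale (adjusted p = 0.000124), and it was lower in KD_Rescued than in PHF19_KD by a log2 fold change of -0.70 ± 0.16 (adjusted p = 0.00207). SOX5 ranged from 0.584 to 0.706 in KD_Rescued, 0.433 to 1.02 in PHF19_KD and 0.505 to 1.00 in shEV. SOX7, an endothelial factor of the SOXF group, ranged from 0.625 to 0.706 in KD_Rescued, 0.413 to 1.04 in PHF19_KD and 0.177 to 1.31 in shEV. SOX7 values were not whole in 5 of the 9 libraries. Neither SOX5 nor SOX7 was called in any of the 3 comparisons, and the ranges of their groups overlapped.

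The LIM homeobox genes LHX2, LHX4 and LHX8 specify neurons and pituitary cells, and each had its own order over the groups. LHX8, a factor of forebrain cholinergic neurons and of oocytes, stood at 15.2 and 14.3 normalised CPM in KD_Rescued, at 24.5, 25.5 and 24.8 in PHF19_KD, and at 16.6, 17.1 and 15.7 in shEV. Its PHF19_KD libraries lay above all others, with a rise of 0.60 ± 0.07 on the log2 scale against shEV (adjusted p = 1.19e-05). It fell by 0.76 ± 0.08 in KD_Rescued against PHF19_KD (adjusted p = 4.55e-06). The library with disagreeing labels, at 25.1, lay within the PHF19_KD range of LHX8.

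LHX2, a factor of forebrain and hair follicle stem cells, stood at 4.65 and 5.04 normalised CPM in KD_Rescued, at 2.04, 2.40 and 1.91 in PHF19_KD, and at 2.62, 3.33 and 1.71 in shEV. KD_Rescued was above both other groups in each library, by 1.19 ± 0.24 on the log2 scale against PHF19_KD (adjusted p = 0.00105) and by 0.91 ± 0.22 against shEV (adjusted p = 0.00668). The second of these calls was lost without KD_Rescued replicate 2 (0.85, adjusted p = 0.056). PHF19_KD differed from shEV in LHX2 by -0.28 ± 0.24 (adjusted p = 0.324). LHX4, a pituitary and motor neuron factor, stood at 4.53 and 3.88 in KD_Rescued, at 2.88, 3.14 and 2.95 in PHF19_KD, and at 1.85, 1.57 and 2.18 in shEV. It was lowest in shEV and highest in KD_Rescued without overlap. It rose by 0.69 ± 0.19 in PHF19_KD against shEV (adjusted p = 0.00619) and by 1.18 ± 0.18 in KD_Rescued against shEV (adjusted p = 0.000385). The step of 0.49 ± 0.19 in KD_Rescued against PHF19_KD (adjusted p = 0.0361) was lost whichever KD_Rescued or PHF19_KD library was left out, with adjusted p between 0.0528 and 0.218. LHX4 and LHX8 had estimated counts that were not whole numbers in 9 and 7 of the 9 libraries, which arises where reads are divided among features, and their values are uncertain for that reason.

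The POU factors POU3F2 and POU4F1, known as BRN2 and BRN3A, act in neuron differentiation. POU3F2 stood at 1.74 and 1.71 normalised CPM in KD_Rescued, at 0.558, 0.496 and 0.520 in PHF19_KD, and at 1.17, 1.57 and 1.94 in shEV. It was lowest in all 3 PHF19_KD libraries, and the KD_Rescued values lay within the shEV range. POU3F2 fell by 1.55 ± 0.31 on the log2 scale with knockdown (adjusted p = 0.000762) and rose in KD_Rescued against PHF19_KD by 1.71 ± 0.32 (adjusted p = 0.00059). POU4F1 stood at 1.08 and 0.834 in KD_Rescued, at 1.30, 0.909 and 1.21 in PHF19_KD, and at 1.72, 1.57 and 1.89 in shEV. Its shEV libraries were above all others. It fell by 0.84 ± 0.27 in KD_Rescued against shEV (adjusted p = 0.0268), a call lost without either KD_Rescued library (adjusted p = 0.0588 and 0.187) and without shEV replicate 1 or 3 (adjusted p = 0.0564 and 0.0592). PHF19_KD differed from shEV by -0.59 ± 0.26 (adjusted p = 0.0585).

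PAX6 and the sine oculis homeobox factors act in a network with EYA coactivators and DACH corepressors in eye, kidney and muscle. PAX8, a thyroid and kidney factor, stood at 6.23 and 6.50 normalised CPM in KD_Rescued, at 9.01, 9.01 and 9.18 in PHF19_KD, and at 4.61, 4.80 and 5.07 in shEV. The 3 groups did not overlap, with KD_Rescued between the others. PAX8 rose with knockdown by 0.91 ± 0.11 on the log2 scale (adjusted p = 8.23e-06), and it fell by 0.51 ± 0.11 in KD_Rescued against PHF19_KD (adjusted p = 0.00164). It was higher in KD_Rescued than in shEV by 0.40 ± 0.11 (adjusted p = 0.0135), a call lost without either KD_Rescued library (adjusted p = 0.0601 and 0.108). PAX8 values were not whole in 6 of the 9 libraries, and PAX8 overlaps the antisense gene PAX8-AS1, so they are uncertain. PAX6, the eye and forebrain factor, stood at 2.58 and 2.50 in KD_Rescued, at 1.58, 2.89 and 1.99 in PHF19_KD, and at 3.34, 2.47 and 3.53 in shEV. Its groups overlapped, and it was not called in any comparison. Without PHF19_KD replicate 2, however, PAX6 was lower in PHF19_KD than in shEV by a log2 fold change of -0.79 (adjusted p = 0.0156), and without shEV replicate 2 by -0.66 (adjusted p = 0.029). With no filter on low counts it was lower by -0.61 (adjusted p = 0.0297).

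SIX4, a factor of muscle and kidney development in mice, stood at 5.23 and 5.21 normalised CPM in KD_Rescued, at 5.48, 4.79 and 5.98 in PHF19_KD, and at 4.83, 4.44 and 4.30 in shEV. SIX4 was not called in any comparison, with a log2 difference of 0.25 ± 0.13 between PHF19_KD and shEV (adjusted p = 0.106). Under upper-quartile scaling this difference was called, at 0.41 (adjusted p = 0.0154). SIX5, whose gene lies beside the myotonic dystrophy repeat, stood at 4.40 and 3.96 in KD_Rescued, at 4.46, 3.64 and 3.03 in PHF19_KD, and at 2.89, 3.03 and 1.89 in shEV. It was higher in KD_Rescued than in shEV by 0.67 ± 0.21 (adjusted p = 0.0263), a call lost without either KD_Rescued library (adjusted p = 0.146 and 0.0719), and its values were not whole in all 9 libraries. The difference of 0.49 ± 0.21 in SIX5 between PHF19_KD and shEV (adjusted p = 0.0563) passed the test without PHF19_KD replicate 3 (adjusted p = 0.0337) or shEV replicate 2 (adjusted p = 0.0345). It also passed under upper-quartile scaling (adjusted p = 0.0135), with the filter at 1 CPM (adjusted p = 0.0406) and with the replicate block (adjusted p = 0.0221).

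IRX5, an Iroquois factor that patterns retina, heart and limb, was the only expressed gene of its family. It stood at 3.24 and 2.75 normalised CPM in KD_Rescued, at 0.186, 0.578 and 0.433 in PHF19_KD, and at 3.16, 2.88 and 2.95 in shEV. KD_Rescued and shEV libraries shared a range, and all 3 PHF19_KD libraries lay far below it. IRX5 fell by 2.86 ± 0.29 on the log2 scale with knockdown (adjusted p = 2.77e-06), which is 7.28-fold, and it rose in KD_Rescued against PHF19_KD by 2.86 ± 0.31 (adjusted p = 5.27e-06). KD_Rescued and shEV means were 2.996 ± 0.346 (SD, n = 2) and 2.995 ± 0.148 (SD, n = 3), with an adjusted p of 0.997 in edgeR. GATA4, a heart and endoderm factor, stood at 6.11 and 5.75 in KD_Rescued, at 6.50, 6.36 and 6.58 in PHF19_KD, and at 4.47, 5.15 and 4.48 in shEV. The 3 groups did not overlap, and GATA4 rose with knockdown by 0.46 ± 0.12 (adjusted p = 0.00434, and 0.0504 with DESeq2). Its difference of -0.13 ± 0.13 between KD_Rescued and PHF19_KD was not called (adjusted p = 0.394). The blood factors GATA1 and GATA2, by contrast, were silent in every library.

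Of the expressed genes below the filter, POU3F1 ranged from 0.291 to 0.459 normalised CPM in KD_Rescued, 0.173 to 0.279 in PHF19_KD and 0.135 to 0.253 in shEV. SIX2 ranged from 0.0834 to 0.415 in KD_Rescued, 0 to 0.260 in PHF19_KD and 0.353 to 0.632 in shEV. DLX6 ranged from 0.374 to 0.584 in KD_Rescued, 0.0929 to 0.248 in PHF19_KD and 0.236 to 0.505 in shEV. SOX15 ranged from 0.374 to 0.5002 in KD_Rescued, 0.173 to 0.330 in PHF19_KD and 0.152 to 0.542 in shEV. All 4 were at 0.632 or lower in the libraries that entered the tests, and POU3F1 counts as expressed through the library with disagreeing labels alone, where it was at 1.08.

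In KD_Rescued against shEV, 7 of the 23 members were higher and 2 were lower, against 20.7% and 19.1% of all tested genes and 39.8% that changed either way, and the medians were 0.11 and 0.02. LHX4 and TBX2 passed 2-fold, where 5.46% of all tested genes were higher and 1.87% lower. The 7 were LHX4, LHX2, SOX11, SIX5, SOX12, PAX8 and GATA4, and the 2 were TBX2 and POU4F1. SOX12 was higher by 0.41 ± 0.11 on the log2 scale (adjusted p = 0.0155), and this was lost without either KD_Rescued library (adjusted p = 0.0636 and 0.0905). GATA4 was higher by 0.33 ± 0.12 (adjusted p = 0.0479), and this was lost whichever library was left out except shEV replicate 2, with adjusted p between 0.0597 and 0.238. Without KD_Rescued replicate 1 or without replicate 2, the count of higher members was 2 each time. The count of lower members was 1 without KD_Rescued replicate 1, KD_Rescued replicate 2, shEV replicate 1 or shEV replicate 3.

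The library with disagreeing labels did not follow a single group across the members. It lay within the PHF19_KD range for LHX8, within the KD_Rescued range for SOX4 and SOX11, and within the shEV range for LHX2 and SIX4. For SOX13, at 5.10 normalised CPM, and GATA4, at 8.54, it lay above every other library. For other members it lay in no group's range but between those of PHF19_KD and shEV. These were SOX2 at 10.99, PAX8 at 6.57, IRX5 and POU3F2 at 0.785 each, TBX18 at 0.687, TBX2 and SOX12. LHX4 lay between the PHF19_KD and KD_Rescued ranges. Counted as KD_Rescued, it reduced the members lower in PHF19_KD than in shEV to 3, in a fit that did not test TBX2. Counted as PHF19_KD it gave 4.

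RNA levels of genes for the enzyme complex also differed between the groups, while its proteins and its mark were not measured here. Of 16 genes for PRC2 subunits and for the removal of its mark, all tested, 4 rose and 11 fell in PHF19_KD against shEV, against 34.9% and 34.2% of all tested genes. PHF19 is 1 of the 16, and its own fall is the knockdown. Their median log2 fold change was -0.58, and that of all tested genes was 0.03. EZH2, the main methyltransferase, averaged 144 ± 0.580 normalised CPM in KD_Rescued (SD, n = 2), 32.7 ± 2.93 in PHF19_KD (SD, n = 3) and 132 ± 1.13 in shEV (SD, n = 3). It fell by 2.02 ± 0.06 with knockdown (adjusted p = 4.98e-11). EZH1, the other methyltransferase, rose by 0.91 ± 0.06 (adjusted p = 2.49e-08), and KDM6B, a demethylase of the same residue, rose by 1.58 ± 0.11 (adjusted p = 6.72e-08). With PHF19 among the higher ones, KD_Rescued had 8 higher and 4 lower than PHF19_KD (median 0.23), against 33.9% and 29.5% of all tested genes. EZH2 rose there by 2.14 ± 0.06 (adjusted p = 6.56e-11). Against shEV, KD_Rescued had 4 higher, again with PHF19, and 7 lower (median -0.13), where the shares of all tested genes were 20.7% and 19.1%.

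Of 19 partners of these families, such as the EYA, DACH and LMO proteins, 12 were tested and 7 were silent. The knockdown raised 5 and lowered 4 against shEV (median log2 fold change -0.01), and with 69.1% of all tested genes called these counts say little about the partners. KD_Rescued had 4 higher and 4 lower than PHF19_KD (median 0.07), against 33.9% and 29.5% of all tested genes. Against shEV it had 2 higher and 2 lower (median 0.11), where the shares were 20.7% and 19.1%. LDB1, the cofactor that binds the LIM domains of LHX proteins, rose with knockdown by 0.76 ± 0.06 (adjusted p = 3.01e-07). PAXIP1, a BRCT protein that binds PAX factors, fell by 1.10 ± 0.08 (adjusted p = 8.28e-08). DACH1, a corepressor of the eye and muscle network, was picked out after its values were seen. It averaged 1.12 ± 0.880 normalised CPM in KD_Rescued (SD, n = 2), 4.14 ± 1.07 in PHF19_KD (SD, n = 3) and 0.481 ± 0.0654 in shEV (SD, n = 3), and rose with knockdown by 3.10 ± 0.42 (adjusted p = 5.11e-05).

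Of 66 developmental transcription factors of other families, such as FOX, ZIC, NEUROG and OTX, 47 were silent and 19 were tested. The knockdown raised 2 and lowered 6 of the 19 against shEV (median log2 fold change -0.12), where 34.9% of all tested genes rose and 34.2% fell. KD_Rescued had 7 higher and 2 lower than PHF19_KD (median 0.35), against 33.9% and 29.5% of all tested genes. Against shEV it had 2 higher and 3 lower (median 0.08), where the shares were 20.7% and 19.1%. PROX1, a lymphatic and neural factor, stood at 1.89 ± 0.0249 normalised CPM in KD_Rescued (SD, n = 2), 7.12 ± 0.114 in PHF19_KD (SD, n = 3) and 4.54 ± 0.306 in shEV (SD, n = 3). It rose with knockdown by 0.65 ± 0.12 (adjusted p = 0.000484), and ATOH1, a hair cell and cerebellar factor, rose by 1.25 ± 0.39 (adjusted p = 0.0131). FOXA1, a pioneer factor of endoderm, fell by 1.28 ± 0.12 (adjusted p = 1.21e-06), and BARX2 fell by 0.74 ± 0.05 (adjusted p = 4.36e-08).

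Markers of other cell types moved beside the members in some lists. For scale, 34.9% of all tested genes rose and 34.2% fell in PHF19_KD against shEV. Of 6 neural markers, 4 were tested and all 4, TUBB3, MAP2, NCAM1 and NES, rose in PHF19_KD against shEV, with summed levels of 15.1 to 21.5 normalised CPM in KD_Rescued, 19.5 to 23.6 in PHF19_KD and 11.6 to 12.1 in shEV, while SNAP25 and DCX were at 0. Of 6 fibroblast markers, PDGFRB and COL1A1 were tested and rose, with summed levels of 0.955 to 1.54 in KD_Rescued, 9.88 to 10.6 in PHF19_KD and 2.53 to 2.78 in shEV. The other 4, COL1A2, COL3A1, DCN and LUM, stayed below 0.5 normalised CPM in every library. Of 6 epithelial markers, KRT18 and CLDN4 were tested and rose, with sums of 0.375 to 0.582 in KD_Rescued, 1.21 to 2.88 in PHF19_KD and 0.361 to 1.12 in shEV. The other 4, EPCAM, KRT8, KRT19 and CDH1, stayed below 0.5 normalised CPM in every library. KRT18 and CLDN4 had 30 and 34 counts over PHF19_KD and 15 and 12 over shEV. They passed the filter through the group in which they were high, so their rise says little about the list. Of 6 T cell markers, CD3D was at 0 and nearly all of the sum of 370 to 407 in the 3 groups was CD28. CD3E, tested with CD28 and TRAC, went the other way and was the only one called. It fell in PHF19_KD against shEV by 1.30 ± 0.35 (adjusted p = 0.00587). In KD_Rescued against PHF19_KD it rose by 1.84 ± 0.36 (adjusted p = 0.000693). Of 5 pluripotent and 6 erythroid and megakaryocyte markers, sums stayed at 1.04 or lower in every library. The part of other cells, of the mitochondrial share and of depth in the members' changes was not tested, apart from a fit without mitochondrially encoded genes, in which 11 members rose and 6 fell in PHF19_KD against shEV.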

How the data were processed

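RNA-seq of MM1S cells was analysed from 1 table holding a column for each of 9 libraries. The values are expected counts (estimated counts per gene), deposited as the authors' quantification gave them and not scaled between libraries. The submitters' processing notes list CASAVA, RSEM and hg19 with neither role nor version, and the table's name refers to salmon. The strand setting, like annotation and filters, is not given in the sources used here. In each library 15.6% to 19.4% of values were not whole within a tolerance of 0.01.

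The expected counts were rounded and tested with edgeR 4.0.16 in R 4.3.3: filterByExpr by group, TMM scaling, glmQLFTest after a robust glmQLFit, 1 fit of group means to the 8 libraries whose labels do not conflict, Benjamini-Hochberg adjustment over 16600 genes, calls below 0.05. TMM factors ran from 0.971 to 1.02. The spread of KD_Rescued, with 2 libraries, was thus estimated together with that of the other groups. Standard errors were the log2 fold change over the square root of the F statistic. Silence was judged on CPM of the unscaled library total. A group at 0 counts was set to a floor of 3 counts over the group, and ratios of low counts have exact 95% intervals, both for counting error only. Members that passed the filter with a mean of at least 1 CPM in any group are given in every library and the rest as ranges, TBX2 also by counts since it was called. At most 2 rises and 2 falls with the lowest adjusted p were named from each other list. Of the tested members and the partners, 1 gene each is counted but not reported singly here. The members, the lists and the tests were chosen with earlier results of these data known. The procedure was tested on simulated counts. No pair of libraries of a group differed by as little as sampling noise (chi-square per degree of freedom 1.37 to 9.15). Both pairs with shEV replicate 3 were highest, at 8.14 and 9.15, and all other pairs were at 1.37 to 2.25. DESeq2 1.42.0, limma-voom (limma 3.58.1), other scalings and filters, a replicate block, leaving out each library, and placing the library with disagreeing labels in either group were alternatives. Promoter sequences came from RefSeq (GRCh38.p14), gene neighbours from RefSeq, and overlaps from the basic set of GENCODE 29, used for names only.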

Additional observations from a re-analysis of the deposited data

Results flagged for a closer look

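The library whose labels disagree entered no comparison, and 2 members had a counting interval there that lay wholly above their level in each of the other 8 libraries. POU3F1 was at 1.08 normalised CPM there, from 11 counts (95% interval 0.539 to 1.93, counting error only), against at most 0.459 in the other 8 libraries and at most 0.253 in shEV. GATA4 was at 8.54 normalised CPM, from 87 counts (95% interval 6.84 to 10.5), against at most 6.58 in the other 8 libraries and at most 5.15 in shEV.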

How the results depend on the processing

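Over 17 alternatives and among the 22 tested members reported singly, 12 of the 15 called in PHF19_KD against shEV, 7 of 12 in KD_Rescued against PHF19_KD and 2 of 9 in KD_Rescued against shEV were called in every one that tested them. Calls lost at least once were TBX19, GATA4 and SOX4 in the first comparison, LHX8, TBX19, LHX4, SOX13 and SOX4 in the second, and all but LHX4 and TBX2 in the third. TBX2 was tested in 14 of the 17. Of 1113 comparisons of a single member under an alternative, 991 kept direction and side of the threshold, 71 lost the call, 15 gained one and 36 changed direction, 0 of them from a called change. Leaving out a library gave 11 to 12 members higher and 4 to 6 lower in PHF19_KD against shEV, 4 to 6 and 6 to 8 in KD_Rescued against PHF19_KD, and 2 to 7 and 1 to 2 in KD_Rescued against shEV. Members lower in PHF19_KD against shEV numbered 8 with no filter, where SIX2 (-2.47, adjusted p = 0.00605), PAX6 (-0.61, adjusted p = 0.0297) and GATA3 (0 counts in PHF19_KD, 17 in shEV) were added, and 3 with the library with disagreeing labels counted as KD_Rescued. Members higher in KD_Rescued against shEV numbered 3 with DESeq2, 2 with that library counted as PHF19_KD and 1 counted as KD_Rescued. Members lower in that comparison numbered 1 with DESeq2, 1 with the filter at 1 CPM, 1 with the replicate block, 1 with that library as PHF19_KD and 0 as KD_Rescued. TBX2 did not pass into the test with the filter at 1 CPM, with that library as KD_Rescued or without shEV replicate 2. It was thus no part of the counts of lower members there. Without shEV replicate 2, PAX6 was called lower in PHF19_KD and TBX18 lower in KD_Rescued, each against shEV, so these counts stayed at 5 and 2. The cause of the other moves was not tested. Silent members numbered 41 at 0.2 CPM and 56 at 1 CPM. Upper-quartile scaling moved the median of all genes to 0.19 in PHF19_KD against shEV and to -0.12 in KD_Rescued against PHF19_KD, and gave 13 members higher and 4 lower in the first and 4 and 9 in the second.

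With the replicate number as a block there were 12 members higher and 5 lower in PHF19_KD against shEV, 6 and 7 in KD_Rescued against PHF19_KD, and 6 and 1 in KD_Rescued against shEV. Same-numbered libraries had correlations of -0.0521 to 0.128 in their deviations from group means. Between PHF19_KD and shEV these were 0.0163, 0.128 and 0.0836, against -0.112 to 0.0139 for differently numbered libraries. With 2 libraries, the deviations of KD_Rescued mirror each other, so its pairs cannot show a pairing. The correlations are small, and whether same-numbered libraries share more than a number was not tested.

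Uncalled log2 changes that took the other sign were, in KD_Rescued against shEV, with the library with disagreeing labels as KD_Rescued, LHX8 0.0969, TBX19 -0.0346, TBX18 0.91 and POU3F2 -0.12. TBX19 was -0.0263 with DESeq2, -0.00875 without mitochondrial genes, -0.0332 with no filter and -0.0252 with that library as PHF19_KD, SOX7 was 0.0607 with voom and IRX5 0.00086 with upper-quartile scaling. In PHF19_KD against shEV, SOX7 was 0.10 with upper-quartile scaling, 0.19 with voom and 0.0779 with the block, and SOX5 was 0.10 with upper-quartile scaling. In KD_Rescued against PHF19_KD, TBX2 was -0.0459 with upper-quartile scaling, -0.72 with voom, -0.13 with the block and -0.84 with that library as PHF19_KD, and SIX5 was -0.10 with it as KD_Rescued. Leaving out 1 library spanned 0 for IRX5 (-0.13 to 0.11), TBX19 (-0.11 to 0.29), POU3F2 (-0.0186 to 0.34) and SOX7 (-0.67 to 0.39) in KD_Rescued against shEV. It did so for SOX5 (-0.30 to 0.23) and SOX7 (-0.49 to 0.57) in PHF19_KD against shEV, and for SIX4 (-0.14 to 0.0189), SOX5 (-0.52 to 0.0185), SOX7 (-0.50 to 0.10) and TBX2 (-3.13 to 1.02) in KD_Rescued against PHF19_KD. PHF19_KD libraries had the lowest depth of the 3 groups, which limits members below 1 CPM.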
